A study of Mus musculus with 9 samples.

Results

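The 31 genes of the semaphorin, plexin and neuropilin family were followed in the striatum of mouse embryos that lack the transcription factor Ebf1 in striatal neurons. They are 20 semaphorins, 9 plexins and 2 neuropilins, taken by gene symbol from a table of 44886 genes. RNA sequencing was made on dissected striata of 9 embryos at E17.5, with 3 brains for each genotype per the methods of the study. The 3 groups of 3 embryos were Control, Islet1Cre;Ebf1fl/- and Dlx5/6::Cre;Ebf1fl/-. Mutants came from crosses of mice with a Cre and a null Ebf1 allele to mice with 2 floxed alleles, so they carry a floxed allele, a null allele and the Cre. Per the methods of the study the controls were heterozygous embryos, and the labels do not give the alleles or the Cre of each of them. In the striatum, Islet1Cre acts in the direct pathway projection neurons (dSPN) and in cholinergic interneurons, and Dlx5/6::Cre in all striatal projection neurons and interneurons. The labels give the strain as C57BL/6, and the methods add that the Islet1Cre line was kept on a B6D2F1/J background. The 2 mutants are named below by their Cre, as Islet1Cre mutants and Dlx5/6::Cre mutants.

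Semaphorins are guidance cues for growing axons and migrating cells, either secreted (class 3) or held at the cell surface (classes 4 to 7). Plexins are their receptors and act on small GTPases inside the cell. Most class 3 semaphorins cannot bind a plexin alone and use a neuropilin, Nrp1 or Nrp2, as the binding partner of a class A plexin. Sema3e is the exception in this class and binds Plxnd1 directly. In the striatum the pair of Sema3e and Plxnd1 is known for its part in the synapses that thalamic axons form on dSPN, and Plxnd1 is also a known gene of growing blood vessels.

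All 31 genes had counts in every library and passed the filter on low counts. The lowest count was 11, for Plxnb3, and 27 genes had over 100 counts in each library. Library totals on genes ran from 16548083 to 41507049 counts, and the family took 0.261% to 0.332% of them. Values below are in CPM, counts relative to the scaled library total. A gene is called changed at an adjusted p under 0.05 in edgeR's quasi-likelihood test over 16368 genes. Whether embryos shared a litter is not stated, so p-values measure the spread between these embryos.

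A few libraries and labels need to be known before the results. Ebf1 itself was not lower in the mutants by whole-gene count, with a log2 fold change of 0.41 in the Islet1Cre and 0.33 in the Dlx5/6::Cre mutants, neither called, so it did not check the genotype labels. The replicate 3 libraries of the Control and Islet1Cre groups held Xist and Y-linked counts together. Control replicate 3 had 12552 counts of Xist and 114 of Eif2s3y, and Islet1Cre replicate 3 had 4062 and 534. The labels give neither sex nor pooling, so whether each of these 2 libraries came from a single embryo is not known. Control replicate 2 had 4 counts of Xist and 1739 of the Y-linked gene Eif2s3y. Control replicate 1, Islet1Cre replicates 1 and 2 and all 3 Dlx5/6::Cre libraries had 7887 to 28938 Xist counts and at most 1 of Eif2s3y. Sex by these counts was thus not balanced between the groups, and its part in the changes was not tested. Plxna3 and Plxnb3 lie on chromosome X. The replicate 1 library of the Dlx5/6::Cre mutants had the highest summed level of 8 markers of cortical excitatory neurons, 218 CPM against 37.7 to 105 CPM in the other 8, and of 8 markers of radial glia and dividing cells, 1419 CPM against 620 to 822 CPM. The cortical markers were shifted in the whole group, with all 8 above 0 on the log2 scale against Control (median 0.99) and against the Islet1Cre mutants (median 1.17), none of them called. Of the 8, 2 did not overlap with the controls and 6 did not overlap with the Islet1Cre mutants. All 8 markers of radial glia and dividing cells were also above 0 in this group. Their median was 0.49 against Control and 0.53 against the Islet1Cre mutants, none called. Embryo codes begin with IE for the 3 Islet1Cre mutants and Controls 1 and 2, and with D for the 3 Dlx5/6::Cre mutants and Control 3. The labels do not say what these letters mean.

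In both mutants Plxnd1 fell and was the member with the largest change, though in the Islet1Cre mutants Nrp2 was close in size (log2 fold change 1.38 against -1.41). Changes called in the other direction were in the neuropilins and in 2 further plexins. Of the 31 genes, 3 passed the test in the Islet1Cre mutants (9.68%), against 0.971% of all genes. Plxnc1 and Nrp1 were higher, where 0.47% of all genes were called higher, and Plxnd1 was lower, where 0.501% were. In the Dlx5/6::Cre mutants 5 passed (16.1%), against 2.39% of all genes. These were Plxnd1, lower (1.34% of all genes), and Nrp1, Nrp2, Plxnc1 and Plxna4, higher (1.05% of all genes). No semaphorin passed in either comparison. At an unadjusted p under 0.05 there were 7 members in the Islet1Cre mutants (22.6%, against 7.93% of all genes) and 10 in the Dlx5/6::Cre mutants (32.3%, against 15.5%). The genes were chosen with earlier results of these data known, and the study had named Plxnd1 among the genes deregulated in both mutants. These shares are therefore a description and do not test the family. The median log2 fold change of the 31 genes was -0.08 in the Islet1Cre and -0.01 in the Dlx5/6::Cre mutants, beside -0.002 and 0.01 over all genes tested. Both comparisons use the same 3 controls, so they do not bear on each other independently. In bulk tissue, fewer cells that express a gene and less RNA of it in each cell cannot be told apart.

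**Figure D1:**
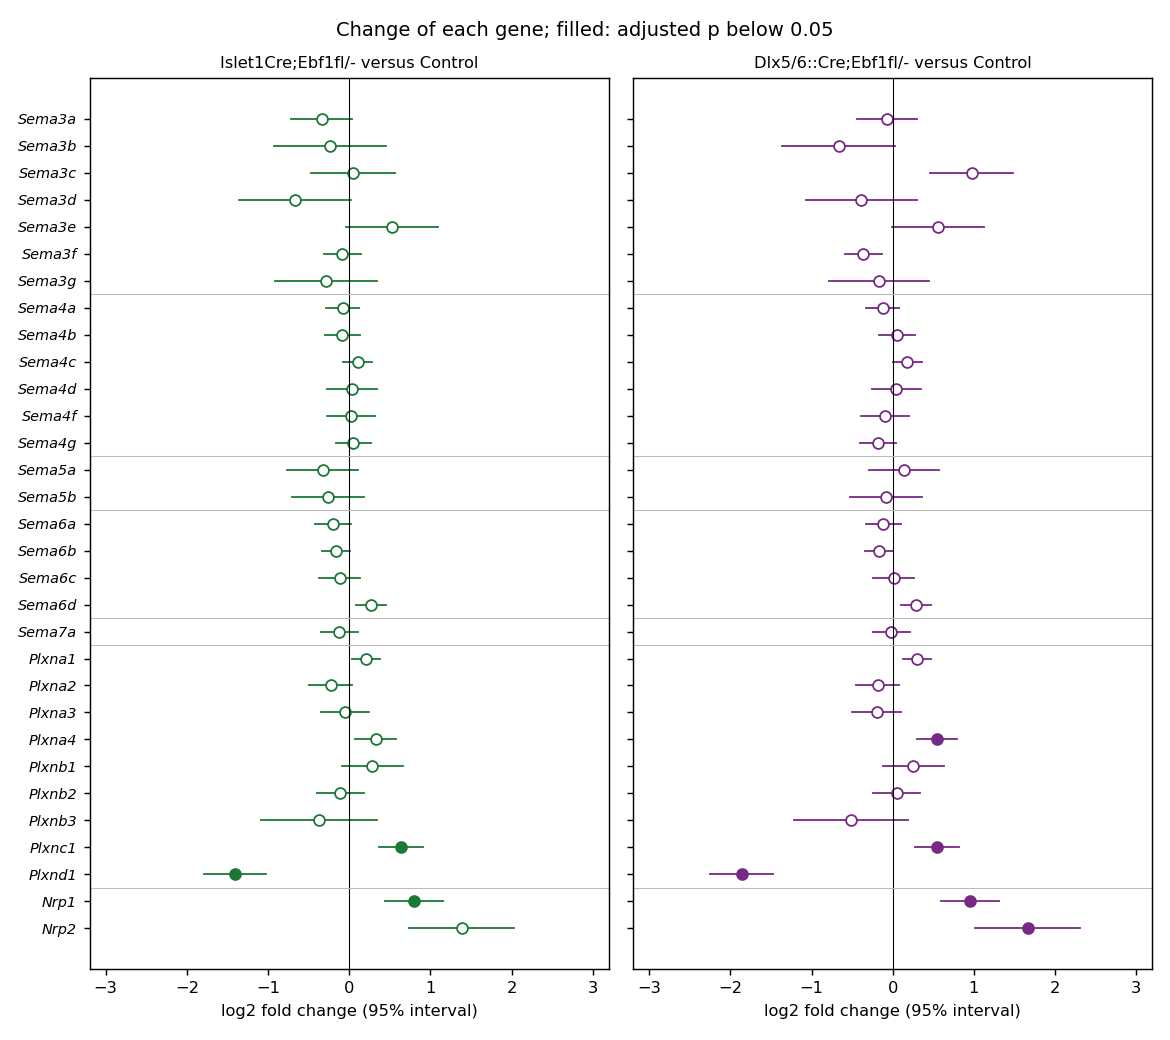
Log2 fold change against Control of each of the 31 genes (points) with its 95% interval (lines), in the Islet1Cre mutants on the left and the Dlx5/6::Cre mutants on the right, with filled points at an adjusted p below 0.05 and grey lines between roles. Plxnd1 lies at -1.41 and -1.86, the neuropilins lie to the right of 0 in both, and the points of the semaphorins are open.

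The gene Plxnd1 (ENSMUSG00000030123), the receptor that Sema3e binds without a neuropilin, is protein-coding and lies on the minus strand of chromosome 6 from 115954811 to 115995005 (GRCm38). Nrp1 (ENSMUSG00000025810), the binding partner used by Sema3a, lies on the plus strand of chromosome 8 from 128358604 to 128503363. Nrp2 (ENSMUSG00000025969), which serves Sema3f and Sema3c, is on the plus strand of chromosome 1 from 62703285 to 62818695. Plxnc1 (ENSMUSG00000074785), the receptor of the membrane-anchored Sema7a, spans 94790866 to 94944835 on the minus strand of chromosome 10. Plxna4 (ENSMUSG00000029765), a class A plexin that works with Nrp1, spans 32144268 to 32588192 on the minus strand of chromosome 6. Of the 75-base windows in their transcripts, at most 0.515% (Plxnc1) also occur in a transcript of another gene. The exons of Plxnc1 share 1.38% of their length with Gm48718 on the same strand, those of Nrp1 share 0.818% with Mir1903, and those of Plxna4 share 0.78% with the antisense gene Plxna4os3.

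Since the deleted gene is a DNA-binding factor, the bases before the transcription start of 3 called genes are shown, with the letters of a GC box (GGGCGG, or CCGCCC on the other strand) in capitals. The promoter windows come from RefSeq on GRCm38.p6, and only bases upstream of the gene start in both RefSeq and GENCODE M21 are printed, on the gene's own strand. Plxnd1 is from chr6:115995006-115995255 (minus), Plxnc1 from chr10:94944846-94945095 (minus) and Nrp2 from chr1:62703067-62703284 (plus).
Plxnd1: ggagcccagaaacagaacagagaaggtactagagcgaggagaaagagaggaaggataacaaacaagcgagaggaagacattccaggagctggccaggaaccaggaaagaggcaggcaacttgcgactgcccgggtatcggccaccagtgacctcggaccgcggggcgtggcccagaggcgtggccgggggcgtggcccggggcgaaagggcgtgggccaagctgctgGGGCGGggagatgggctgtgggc
Plxnc1: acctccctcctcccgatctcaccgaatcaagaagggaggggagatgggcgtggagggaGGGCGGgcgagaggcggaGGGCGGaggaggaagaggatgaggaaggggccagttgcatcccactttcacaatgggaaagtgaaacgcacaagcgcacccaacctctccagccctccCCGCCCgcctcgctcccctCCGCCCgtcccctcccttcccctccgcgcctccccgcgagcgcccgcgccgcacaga
Nrp2: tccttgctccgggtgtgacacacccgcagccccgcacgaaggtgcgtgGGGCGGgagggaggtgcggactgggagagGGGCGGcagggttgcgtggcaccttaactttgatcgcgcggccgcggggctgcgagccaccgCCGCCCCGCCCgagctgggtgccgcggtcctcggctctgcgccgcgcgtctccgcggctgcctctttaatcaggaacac

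The stretch before Plxnd1 held 1 GC box and those before Plxnc1 and Nrp2 held 4 each, of which 2 in Nrp2 share a letter. GC made up 64.8%, 68.8% and 72.5% of their bases. The letters CCCNNGGG, the core of the EBF-type motif, which reads the same on both strands, were in none of the 3 stretches. In the full window of 250 bases before and 50 after the start, Plxnd1 had the core once, from base 19 after the start. It is shown within 30 bases of chr6:115994969-115994998 (minus), with the core in capitals.
Plxnd1: ccacggagccgCCCCCGGGctgagcgcctc

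Of the 31 genes 26 had at least 1 window, 37 windows in all, and 11 of these genes held the core in a window, or 29.7% of their windows. Over all 32851 windows 13.7% held it. Base composition differed too, with a median GC content of 63.7% in the windows of the family and 52.7% in all. GC boxes were in 73.0% of the windows of the family and in 35.7% of all windows, and TATAAA was in 0.0% and 13.6%. Plxna1, Plxna4, Sema3b, Sema3f and Sema6a are not covered here. These matches describe letters, not binding.

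Among the receptors, Plxnd1 had the highest level per length in the controls and was at 526, 488 and 393 CPM there. It was at 163, 139 and 229 CPM in the Islet1Cre mutants and at 117, 137 and 133 CPM in the Dlx5/6::Cre mutants. Every mutant embryo was below every control. The log2 fold change was -1.41 ± 0.17 (SE), a 2.65-fold lower level, in the Islet1Cre mutants (edgeR adjusted p = 0.0074). In the Dlx5/6::Cre mutants it was -1.86 ± 0.17, or 3.63-fold lower (edgeR adjusted p = 0.0010). With each library left out in turn, the Islet1Cre value stayed between -1.64 and -1.26 and lost its call in 1 of 9 fits, without Islet1Cre replicate 1 (edgeR adjusted p = 0.0565). The Dlx5/6::Cre value stayed between -1.97 and -1.77 and kept its call in 9 of 9. Within embryos whose codes begin with IE, the log2 fold change was -1.52 (edgeR adjusted p = 0.0069). Within codes beginning with D there is 1 control, assumed to vary like the mutants, and the value was -1.61 (edgeR adjusted p = 0.112).

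Markers of cell types known to express Plxnd1 were read beside it. The 8 endothelial markers were Pecam1, Cdh5, Cldn5, Flt1, Tek, Esam, Emcn and Egfl7. They summed to 130 to 170 CPM in the controls, 135 to 148 CPM in the Islet1Cre and 125 to 147 CPM in the Dlx5/6::Cre mutants. In the Islet1Cre mutants 6 of the 8 lay below 0 and 2 above (median log2 fold change -0.06). In the Dlx5/6::Cre mutants 5 lay below and 3 above (median -0.14), and none was called in either comparison. Drd1, the dopamine receptor of dSPN, was at 27.7, 53.7 and 60.7 CPM in the controls, at 70.0 to 80.5 CPM in the Islet1Cre mutants and at 57.5 to 75.2 CPM in the Dlx5/6::Cre mutants. Neither comparison called it. Tac1, the dSPN gene for substance P, had its lowest values in the Dlx5/6::Cre mutants, 48.8 to 69.0 CPM against 81.9 to 196 CPM in the controls, and was not called. Isl1, a transcription factor of dSPN and cholinergic interneurons, was at 132, 130 and 141 CPM in the Dlx5/6::Cre mutants, below the controls at 156 to 207 CPM, and Foxp2, enriched in dSPN, was at 98.2 to 130 CPM against 128 to 164 CPM, so the direction of Drd1 there was not shared by Tac1, Isl1 or Foxp2. The log2 fold changes of Isl1 and Foxp2, -0.40 and -0.36, were not called. Foxp1, a transcription factor of striatal neurons, was the single gene called among 12 projection neuron markers, lower in the Dlx5/6::Cre mutants by a log2 fold change of -0.53 (edgeR adjusted p = 0.0305). In the Islet1Cre mutants 8 of the 12 lay above 0 and 4 below, from -0.53 to 0.67. There 4 of the 12 had an edgeR unadjusted p under 0.05, where 7.93% of all genes did. Drd1 is the only dSPN marker printed for the Islet1Cre mutants, so it does not stand for dSPN markers as a set. The part of cell composition in the fall of Plxnd1 was not tested.

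**Figure D2:**
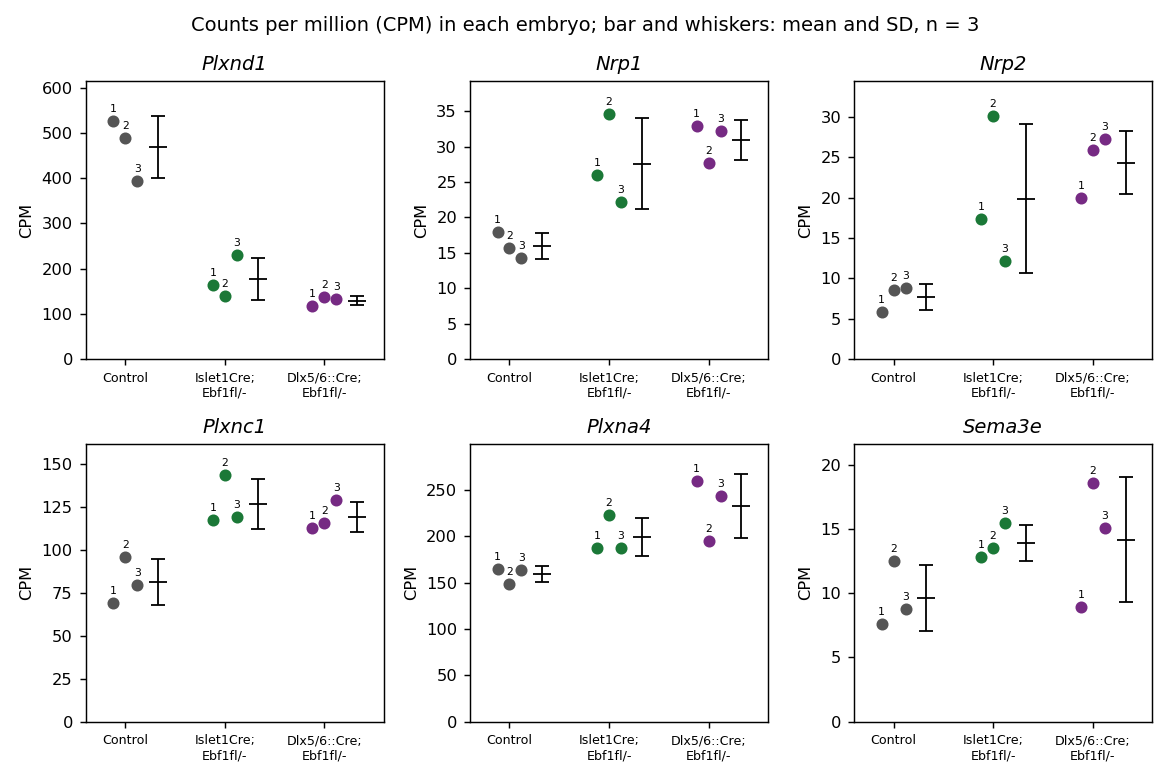
Level in CPM of 6 genes in each embryo (points, numbered by replicate, axes starting at 0) with the mean and SD of 3 embryos beside them. Plxnd1 falls from 393 to 526 CPM in the controls to at most 229 CPM in the mutants, the mutants lie above the controls for Nrp1, Nrp2, Plxnc1 and Plxna4, and Sema3e overlaps between Control and Dlx5/6::Cre mutants.

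The neuropilins, at low levels in control striatum, lay above the controls in every mutant embryo. Nrp1 was at 18.0, 15.7 and 14.2 CPM in the controls, 26.0, 34.7 and 22.2 CPM in the Islet1Cre mutants and 32.9, 27.7 and 32.2 CPM in the Dlx5/6::Cre mutants. No mutant embryo overlapped with a control. Its log2 fold change was 0.80 ± 0.16 (1.74-fold higher, edgeR adjusted p = 0.0486) in the Islet1Cre mutants and 0.95 ± 0.16 (1.94-fold, edgeR adjusted p = 0.0130) in the Dlx5/6::Cre mutants. Nrp2 was at 5.81, 8.52 and 8.74 CPM in the controls, 17.3, 30.1 and 12.1 CPM in the Islet1Cre mutants and 20.0, 25.9 and 27.2 CPM in the Dlx5/6::Cre mutants. Again all mutants lay above all controls, with a wide spread among the Islet1Cre mutants, whose replicate 3 was the nearest to the controls for both neuropilins. That library, which held Xist and Y-linked counts together, was also the nearest for Plxnd1 and Plxna4, and replicate 1 was for Plxnc1. The log2 fold change of Nrp2 was 1.38 ± 0.29 in the Islet1Cre mutants, which missed the threshold (edgeR adjusted p = 0.0639) but passed with DESeq2 (adjusted p = 0.00015) and in edgeR on unfiltered counts (adjusted p = 0.0010), and 1.66 ± 0.29 (3.17-fold higher, edgeR adjusted p = 0.0167) in the Dlx5/6::Cre mutants. The difference between the mutants in Nrp2 was 0.28, with a 95% interval of -0.34 to 0.90, so the 2 effects were not shown to differ.

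Among the plexins besides Plxnd1, Plxnc1 rose in both mutants. It was at 69.1, 95.6 and 79.6 CPM in the controls, 117, 143 and 119 CPM in the Islet1Cre mutants and 113, 116 and 129 CPM in the Dlx5/6::Cre mutants. The mutants were all above the controls, by a log2 fold change of 0.64 ± 0.12 (1.55-fold, edgeR adjusted p = 0.0402) and 0.55 ± 0.12 (1.46-fold, edgeR adjusted p = 0.0433). Its ligand Sema7a was at 72.6, 82.4 and 93.9 CPM in the controls, 82.6, 68.0 and 78.2 CPM in the Islet1Cre mutants and 84.7, 82.2 and 79.4 CPM in the Dlx5/6::Cre mutants, so the groups overlapped. Plxna4 was at 165, 149 and 164 CPM in the controls, 188, 223 and 187 CPM in the Islet1Cre mutants and 260, 195 and 244 CPM in the Dlx5/6::Cre mutants. Here too no mutant fell within the controls, and the log2 fold change was 0.55 ± 0.11 in the Dlx5/6::Cre mutants (1.46-fold, edgeR adjusted p = 0.0323) and 0.32 ± 0.11 in the Islet1Cre mutants, where it was not called (edgeR adjusted p = 0.369). Plxna1, also a class A receptor and singled out after its values were seen, was at 153 to 169 CPM in the controls, 172 to 191 CPM in the Islet1Cre and 184 to 207 CPM in the Dlx5/6::Cre mutants. Its log2 fold changes of 0.21 and 0.30 were not called (edgeR adjusted p = 0.427 and 0.0781), though DESeq2 called the second (adjusted p = 0.0119). Of the exon length of this gene, 10.7% lies opposite Gm26811, whose reads cannot be kept apart if counting ignored strand. The other 5 plexins, Plxna2, Plxna3 and Plxnb1 to Plxnb3, were not called in either comparison, with log2 fold changes from -0.37 (Plxnb3) to 0.28 (Plxnb1) in the Islet1Cre and from -0.51 to 0.25, of the same genes, in the Dlx5/6::Cre mutants. Plxna2, named here because its groups did not overlap, was at 344 to 364 CPM in the controls and 284 to 315 CPM in the Islet1Cre mutants (log2 fold change -0.23, not called).

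The 4 genes called higher had weaker calls than Plxnd1. Without the 2 libraries that held Xist and Y-linked counts, Nrp2 in the Dlx5/6::Cre mutants was the single one of them still called (edgeR adjusted p = 0.0329). With the letters of the embryo code as a covariate, none was, with edgeR adjusted p of 0.139 to 0.407 where Nrp1, Nrp2 and Plxnc1 had been called and 0.463 for Plxna4. Their log2 fold changes stayed above 0 in every fit. In the fits that left out 1 library, Nrp1 lost its call in 7 of 9 in the Islet1Cre and 2 of 9 in the Dlx5/6::Cre mutants, and Plxnc1 in 7 and 6. Nrp2 lost its Dlx5/6::Cre call in 3 and Plxna4 in 6 of 9. Beside these rises stand the cortical markers and the radial glia and dividing cell markers of the Dlx5/6::Cre mutants. Without the replicate 1 library, the highest in both, the log2 fold changes there were 0.91 for Nrp1, 1.79 for Nrp2, 0.59 for Plxnc1 and 0.46 for Plxna4, all still called. That fit does not remove the shift of the group. Replicates 2 and 3 still summed to 90.0 and 105 CPM of cortical markers, against 37.7 to 92.8 CPM in the controls. The median log2 fold change of the 8 cortical markers was 0.99 in the Dlx5/6::Cre and -0.21 in the Islet1Cre mutants. Of 8 microglia and macrophage markers, 6 were above 0 in the Dlx5/6::Cre mutants (median 0.21). There 3 of the 8 had an edgeR unadjusted p under 0.05, against 15.5% of all genes. Also above 0 were 4 of 5 oligodendrocyte lineage, 3 of 5 thalamus and 2 of 5 pallidum and medial eminence markers. None in these 4 lists was called. The part of these markers in the rises was not tested.

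**Figure D3:**
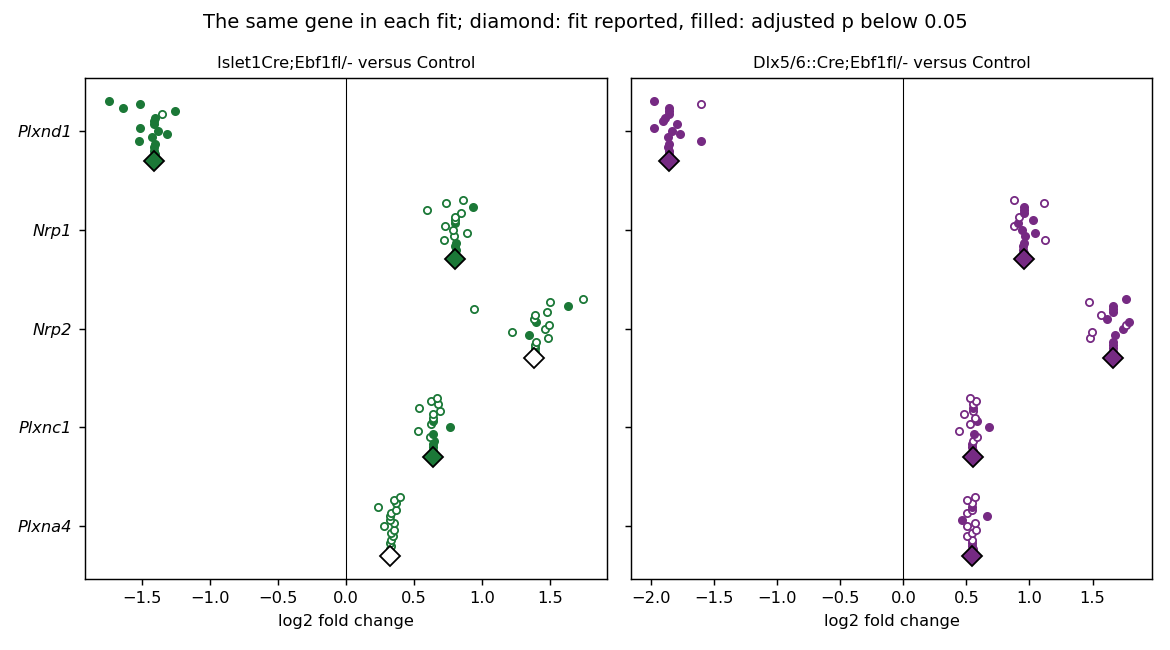
Log2 fold change against Control of 5 receptors in the fit reported (diamonds) and in each other fit (circles), with filled marks at an adjusted p below 0.05, for the Islet1Cre mutants on the left and the Dlx5/6::Cre mutants on the right. Plxnd1 stays below 0 and filled except in 1 fit on each side, and the other 4 stay above 0 with many open circles.

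The ligands gave no call, and several of them differed by less than the spread between embryos. Sema3e, the ligand of Plxnd1, was at 7.58, 12.5 and 8.80 CPM in the controls, 12.8, 13.5 and 15.5 CPM in the Islet1Cre mutants and 8.90, 18.5 and 15.1 CPM in the Dlx5/6::Cre mutants. The Islet1Cre mutants lay just above the controls and the Dlx5/6::Cre mutants overlapped with them. Its log2 fold changes were 0.53 ± 0.26 and 0.56 ± 0.26 (edgeR adjusted p = 0.692 and 0.324). Sema3c, a cue for cortical axons and migrating neurons, was at 19.6, 19.6 and 11.6 CPM in the controls, 19.6, 16.1 and 17.0 CPM in the Islet1Cre mutants and 42.1, 34.1 and 23.7 CPM in the Dlx5/6::Cre mutants. Each Dlx5/6::Cre mutant was above all other embryos, and the log2 fold change of 0.97 ± 0.23 against Control missed the threshold (edgeR adjusted p = 0.0585). It was called by DESeq2 (adjusted p = 0.0013) and by edgeR when low counts were not filtered (adjusted p = 0.0022). The highest of these values was in the Dlx5/6::Cre library with the high cortical and progenitor markers, and without it Sema3c had a log2 fold change of 0.77 (edgeR adjusted p = 0.0802). The part of those markers in the Sema3c value was not tested.

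Sema3f, the most abundant class 3 semaphorin per length and a repellent cue that acts through Nrp2, was at 174, 143 and 152 CPM in the controls, 129, 161 and 152 CPM in the Islet1Cre mutants and 130, 113 and 120 CPM in the Dlx5/6::Cre mutants. The Dlx5/6::Cre mutants were all below the controls, with a log2 fold change of -0.36 ± 0.10 that was not called by edgeR (adjusted p = 0.113) but was by DESeq2 (adjusted p = 0.0351). Sema3d was at 8.60, 11.1 and 8.84 CPM in the controls, and its log2 fold changes of -0.67 and -0.39 were not called (edgeR adjusted p = 0.659 and 0.579). In the Islet1Cre mutants it was at 4.31, 4.13 and 9.76 CPM, so replicate 3 stood within the controls. Over the 7 class 3 genes the log2 fold changes ran from -0.67 to 0.53 in the Islet1Cre and from -0.67 to 0.97 in the Dlx5/6::Cre mutants. Sema3a, the ligand of Nrp1, named for groups that did not overlap, was at 33.7 to 47.9 CPM in the controls and 31.2 to 33.2 CPM in the Islet1Cre mutants (log2 fold change -0.34, not called). Sema3b and Sema3g were not called.

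None of the membrane-bound semaphorins was called by edgeR. In class 4, whose members signal mostly through class B plexins, the 6 log2 fold changes lay between -0.08 and 0.10 in the Islet1Cre and between -0.18 and 0.18 in the Dlx5/6::Cre mutants. Sema4g, the highest of the class per length in the controls though Sema4c was in both mutants, was at 182, 184 and 172 CPM in the controls, 164, 214 and 178 CPM in the Islet1Cre mutants and 150, 169 and 155 CPM in the Dlx5/6::Cre mutants, which were just below the controls (log2 fold change -0.18, edgeR adjusted p = 0.402). Sema4c had log2 fold changes of 0.10 and 0.18, and 7.27% of its exon length lies opposite D430040D24Rik. In class 5, Sema5b was at 48.3, 34.4 and 30.1 CPM in the controls, 30.0, 31.1 and 33.1 CPM in the Islet1Cre mutants and 47.3, 30.9 and 28.8 CPM in the Dlx5/6::Cre mutants. The replicate 1 embryos of the Control and Dlx5/6::Cre groups stood above the other 7. Sema5a was at 23.8 to 24.4 CPM in the controls, 17.8 to 20.0 CPM in the Islet1Cre mutants and 19.0 to 36.9 CPM in the Dlx5/6::Cre mutants, with log2 fold changes of -0.33 and 0.14 (edgeR adjusted p = 0.848 and 0.775). Its highest value was in the Dlx5/6::Cre library with the high cortical and progenitor markers.

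In class 6, ligands of class A plexins, Sema6b was the highest per length, at 139, 125 and 118 CPM in the controls, 117, 106 and 117 CPM in the Islet1Cre mutants and 110, 113 and 116 CPM in the Dlx5/6::Cre mutants. The mutants lay below the controls, by a log2 fold change of -0.17 in both, neither called (edgeR adjusted p = 0.670 and 0.333). Sema6d went the other way, from 66.3 to 77.7 CPM in the controls to 79.7 to 92.2 CPM in the Islet1Cre and 87.3 to 91.2 CPM in the Dlx5/6::Cre mutants. Those log2 fold changes, 0.27 ± 0.08 and 0.28 ± 0.08, were not called (edgeR adjusted p = 0.271 and 0.127). Sema6a had log2 fold changes of -0.20 and -0.12 (edgeR adjusted p = 0.719 and 0.610), and Sema6c of -0.12 and 0.01, neither called. Sema6c also did not overlap in the Islet1Cre mutants, at 138 to 141 CPM against 144 to 167 CPM in the controls.

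Counting genes whose embryos did not overlap with the controls, without a test, gave 14 of 31 in the Islet1Cre mutants (45.2%), 7 higher and 7 lower, where 15.2% of all genes did so, 7.77% higher and 7.45% lower. In the Dlx5/6::Cre mutants there were 12 (38.7%), 8 higher and 4 lower, against 21.0% of all genes, 9.71% higher and 11.2% lower. The genes higher in both were Nrp1, Nrp2, Plxna1, Plxna4, Plxnc1 and Sema6d, and those lower in both were Plxnd1 and Sema6b. These shares too describe genes chosen with earlier results of these data known and do not test the family.

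Levels between genes were compared as CPM per kilobase of exons. In the controls Plxnd1 led the family, at 64.3 ± 9.42 (SD, n = 3), and its range did not overlap with that of the next, Plxna3, at 32.4 ± 4.83. Sema6b (32.1), Sema3f (30.0) and Plxnb2 (28.8) followed, each overlapping with the neighbour above it. At the low end stood Nrp2 (0.65), Sema3b (0.60), Sema3g (0.59) and, apart from them, Plxnb3 (0.19). Of the 30 pairs of neighbours in this order, 20 overlapped over the 3 embryos. Plxnd1 was rank 5 in the Islet1Cre mutants, at 24.3 ± 6.42, and rank 12 in the Dlx5/6::Cre mutants, at 17.7 ± 1.47. With the mean transcript length in place of the union of exons, Plxnd1, Plxna3 and Plxnb3 kept ranks 1, 2 and 31 in the controls and Sema6b moved from rank 3 to 14.

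**Figure D4:**
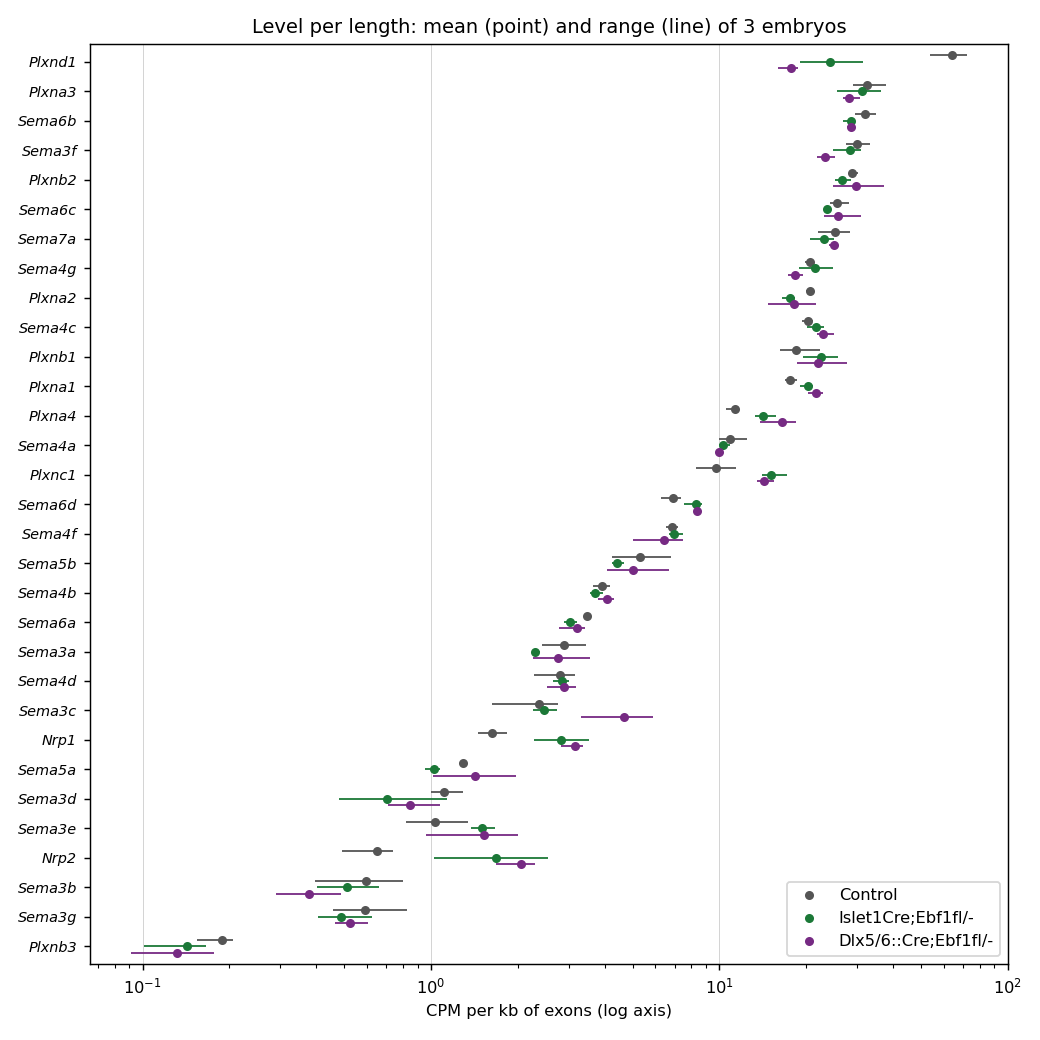
Mean (points) and range over 3 embryos (lines) of the level of each gene in CPM per kilobase of exons, on a log axis, by group and in the order of the controls. Plxnd1 is at the top in the controls at 64.3 and at 24.3 and 17.7 in the mutants, and the neuropilins are in the lower part of the order with the mutants to the right of the controls.

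The make-up of the receptors changed with these genes, which is a description of the same values. Plxnd1 took 31.5% ± 2.35 (SD, n = 3) of the summed plexin level per kilobase in the controls, 14.1% ± 3.69 in the Islet1Cre mutants and 10.6% ± 1.93 in the Dlx5/6::Cre mutants. Plxna1 to Plxna4 together went from 40.3% ± 1.71 to 48.4% ± 1.75 and 50.2% ± 1.00. Summed over the plexins without Plxnd1, the level was 139 ± 8.04 in the controls, 148 ± 14.2 in the Islet1Cre and 151 ± 19.2 in the Dlx5/6::Cre mutants, so these sums differed by less than the spread. The summed neuropilin level was 2.28 ± 0.0762 in the controls, 4.50 ± 1.43 in the Islet1Cre and 5.22 ± 0.321 in the Dlx5/6::Cre mutants. The ratio of Plxnd1 to Sema3e, receptor to ligand, was 64.9 ± 20.5, 16.0 ± 2.90 and 12.5 ± 3.81. The summed semaphorin level was 204 ± 6.98 in the controls and 195 ± 4.85 and 196 ± 7.85 in the mutants.

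Between the 2 mutants no member passed the test, as was the case for all 16368 genes (0.0%), of which 844 had an unadjusted p under 0.05 in edgeR and 17 were called by DESeq2, none of them a member. Plxnd1 and Sema3c, 2 of 31 genes (6.45%), did not overlap between the mutants, where 10.4% of all genes did not, 5.24% lower and 5.14% higher in the Dlx5/6::Cre mutants. At an unadjusted p under 0.05 there were 5 members (16.1%), against 5.16% of all genes, again for genes chosen with earlier results known. All Islet1Cre mutants have codes beginning with IE and all Dlx5/6::Cre mutants codes beginning with D. Genotype and code letters thus cannot be told apart when the 2 mutants are compared directly. The 8 cortical markers were also all above 0 between them (median 1.17), and their part in the differences below was not tested. Plxnd1 was lower in the Dlx5/6::Cre mutants by a log2 difference of -0.45 (95% interval -0.83 to -0.07, unadjusted p = 0.0231, edgeR adjusted p = 0.868). Sema3c was higher in them by 0.92 (95% interval 0.41 to 1.44, unadjusted p = 0.0023, edgeR adjusted p = 0.868). For the other genes called against Control the differences were 0.16 for Nrp1 (95% interval -0.19 to 0.51), 0.22 for Plxna4 (-0.03 to 0.47) and -0.09 for Plxnc1 (-0.36 to 0.18).

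Of 38 genes that act with these receptors, such as co-receptors, CRMP and MICAL proteins, small GTPases with their regulators and kinases, 1 was called in each comparison (2.63%), against 0.971% and 2.39% of all genes. Cntn2, the adhesion molecule TAG-1 of growing axons, was lower in the Islet1Cre mutants, at 55.0, 51.0 and 62.6 CPM against 142, 108 and 86.5 CPM in the controls. That is a log2 fold change of -0.999 ± 0.19 (1.998-fold lower, edgeR adjusted p = 0.0384). In the Dlx5/6::Cre mutants it was at 94.7, 64.6 and 65.3 CPM, which overlapped with the controls (log2 fold change -0.58, edgeR adjusted p = 0.161). DESeq2 (adjusted p = 0.0472) and edgeR on unfiltered counts (adjusted p = 0.0201) called it there too. Dpysl4, of the CRMP family that carries semaphorin signals to microtubules, was lower in the Dlx5/6::Cre mutants, at 151, 172 and 165 CPM against 212, 226 and 193 CPM (log2 fold change -0.37 ± 0.08, edgeR adjusted p = 0.0392). In the Islet1Cre mutants it was at 172, 180 and 172 CPM and not called. The Dpysl4 call was lost in all 9 fits that left out 1 library and the Cntn2 call in 5 of 9.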

How the data were processed

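Striata of 9 mouse embryos at E17.5 were sequenced, 3 for each genotype, 1 library each, grouped by the sample labels. Per the methods, the authors used a stranded polyA library kit, trimmed and filtered reads, mapped them with STAR 2.4.0k to the genome of Ensembl 81 (mm10), removed reads with more than 1 alignment and counted the rest with HTSeq 0.5.3 before normalizing with DESeq 1.8.3. The authors deposited raw counts per Ensembl gene, used here. The strand setting of the counting is not given in the sources used here.

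From the counts, edgeR 4.0.16 (R 4.3.3) was fitted to all 9 libraries with filterByExpr (minimum count 10), TMM and the quasi-likelihood test, with Benjamini-Hochberg adjustment over 16368 genes and a threshold of 0.05. SE is the log2 fold change over the root of F, and intervals are 95% by the t distribution. CPM uses the TMM-scaled total. For symbols, positions and exon lengths the GENCODE M21 annotation (GRCm38) was used. It holds 44048 of the 44886 identifiers.

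Values per embryo are given for members called, for Sema3e and Nrp1 and for the highest member per length in each role. Others are given by range or count, with up to 2 named in each role for the largest change. Plxna1, Plxna2, Sema3a and Sema6c were named after their values were seen, and partner genes are named where called. The members and lists were chosen with earlier results of these data known. On simulated counts for the Dlx5/6::Cre comparison over 16078 genes, with 200 genes changed, 82% of 2-fold and 97% of 4-fold changes were recovered and 4.28% of calls were false. These counts were drawn independently around control means, without effects of code letters, sex or tissue make-up, so the rates may not hold for the data.

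Samples share the numbers 1 to 3 in their titles. These numbers were not taken as pairs. Replicate libraries differed by more than sampling noise. Alternatives were DESeq2 1.42.0, its size factors, other filters, only the 6 samples compared, the code letters as a covariate or within them, a replicate block, leaving out each library and, chosen after seeing the data, leaving out 2 libraries with Xist and Y-linked counts. Totals of 16548083 to 41507049 counts set the precision, lowest for genes with few counts.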

Additional observations from a re-analysis of the deposited data

How the results depend on the processing

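The fall of Plxnd1 kept its direction in every fit and its call in all but 2, those named in the report, and no called change of a member changed direction. Of 31 members, 3 were called in the Islet1Cre and 5 in the Dlx5/6::Cre mutants. These counts became 1 and 1 with the code letters as a covariate, 1 within IE codes, 0 within D codes, 1 and 2 without the 2 libraries with Xist and Y-linked counts, and 0 to 4 and 1 to 6 with each library left out. In the Islet1Cre mutants 0 were called without Islet1Cre replicate 1 and 1 without Control replicate 1 or 3, Islet1Cre replicate 2 or Dlx5/6::Cre replicate 2 or 3. In the Dlx5/6::Cre mutants there was 1 without Control replicate 3, 2 without Control replicate 1 or Dlx5/6::Cre replicate 3, and 3 without Islet1Cre replicate 1 or 3. In the Dlx5/6::Cre mutants they were 8 with DESeq2 and 3 with the 6 samples alone. Partner genes, 1 and 1, became 2 and 3 with DESeq2, 2 and 3 with no filter, 0 and 0 without the 2 libraries, 0 to 2 and 0 to 1 with each library left out, and 0 in the Dlx5/6::Cre mutants with the 6 samples, the covariate or D codes. Deviations of same-numbered libraries correlated at 0.087 to 0.248 between Control and Dlx5/6::Cre mutants, at -0.254 to -0.142 between Control and Islet1Cre mutants and at -0.104 to -0.073 between the mutants. Not every pair was over 0.1, so the numbers were not taken to pair the samples. A replicate block gave 143 and 363 calls over all genes and left 3 and 5 members and 0 partner genes in the Dlx5/6::Cre mutants. It took the Nrp1 call in the Islet1Cre and the Plxna4 call in the Dlx5/6::Cre mutants and added Nrp2 in the Islet1Cre and Sema3c in the Dlx5/6::Cre mutants.

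Over all genes, 159 and 392 calls became 401 and 844 with DESeq2, 311 and 708 with no filter, 259 and 181 with the 6 samples, 61 and 32 with the covariate, 52 and 138 without the 2 libraries, 2 within D codes, and 15 to 397 and 143 to 613 with each library left out. Changes of sign were in values not called. Sema3c in the Islet1Cre mutants was -0.16 with the covariate or IE codes and -0.13 without the 2 libraries. Sema5b in the Dlx5/6::Cre mutants was 0.24 with the covariate or D codes, and Sema7a was 0.081 without the 2 libraries. Nrp2 between the mutants was -0.0042 with the covariate. With each library left out, the log2 fold changes ran from -0.16 to 0.17 for Sema3c, -0.15 to 0.0025 for Sema3f and -0.067 to 0.13 for Sema4g in the Islet1Cre mutants, from -0.17 to 0.32 for Sema5a, -0.33 to 0.14 for Sema5b and -0.10 to 0.082 for Sema7a in the Dlx5/6::Cre mutants, and from -0.16 to 0.013 for Plxnc1 between the mutants. The cause of these shifts was not tested. With 3 embryos in a group and totals down to 16548083 counts, genes such as Plxnb3 with 11 counts in a library are the least precise.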
